A study of Mus musculus with 15 samples.

Results

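The comparison set macrophages given extracellular vesicles (EVs) from mice irradiated with 9 Gy against macrophages given EVs from mice irradiated with 2 Gy. It used 12 of the 15 samples of the study, 6 with 9 Gy EVs and 6 with 2 Gy EVs, chosen by their titles, and the genes with a mean raw count of at least 20 over these 12 samples, which were 264 of the 561 genes of the panel. Just inside this minimum were Il2rb, H2-Ob and Tal1 with means of 20.1 to 20.9 counts, and just outside were Abl1, Icam2 and Runx1 with 19.4 to 19.8. The cells were RAW 264.7, an established mouse macrophage line, and every sample received LPS, the bacterial lipopolysaccharide that activates macrophages, together with plasma EVs for 24 hours. The 9 Gy day 3 and 9 Gy day 7 groups received EVs taken 3 and 7 days after whole-body ionizing radiation (WBIR) of young adult female C57BL/6J mice with 9 Gy. The 2 Gy day 3 and 2 Gy day 7 groups received EVs taken 3 and 7 days after 2 Gy. A further 3 samples received EVs of sham-treated mice and also LPS, and they served as a reference level. Each group had 3 samples. The study's methods speak of triplicate runs, and no source says that these were separate cultures or separate EV preparations, so that p-values measure only the spread between these samples, which may be technical. No sample without LPS or without EVs was used here. The labels and the methods of the study differ in the number of EVs given and in the buffer used to lyse the cells. A lower level of an mRNA cannot be told apart from fewer cells expressing it, because the RNA came from whole cultures.

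LPS is bound by CD14, MD-2 and Toll-like receptor 4, whose adaptor MyD88 leads to NF-κB and MAP kinase activity and to early cytokines such as IL-1, IL-6 and IL-12. A second adaptor, TRIF, leads to IRF3 and interferon-β, which acts back on the cell through its receptor and the STAT factors and turns on interferon-stimulated genes. Activated macrophages also raise MHC molecules, costimulatory ligands and chemokines, which are the signals read by T cells and by recruited leukocytes.

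The panel counts single mRNA molecules with color-coded probes and without amplification. Total counts were 43176 to 87899 in the 9 Gy day 3 group and 453178 to 837995 in the other groups with EVs of irradiated mice. In the 9 Gy day 3 group 190 to 246 of the 561 genes stood at the lowest deposited count of 1, against 5 to 11 genes in the other irradiated groups, and 42.2% of its values for tested genes were under 20. The geometric mean of the 14 housekeeping genes made up 1.62 ± 0.173 of every 1000 counts with 9 Gy EVs and 0.732 ± 0.0251 with 2 Gy EVs (SD, n = 6 each, exact two-sided permutation p = 0.00216, the smallest that 924 regroupings can give). The 5 genes with the highest mean share of counts over the 12 samples, Ccl3, Ccl5, Gapdh, Ccl9 and B2m, held 47.8 ± 1.35% of all counts with 9 Gy EVs and 60.5 ± 0.480% with 2 Gy EVs (SD, n = 6 each, exact permutation p = 0.00216, the same after adjustment over both tests). The 6 samples of each dose did not overlap in either measure. These tests take the 12 samples as independent, but some samples of both days resembled each other within a dose, and with the same-numbered ones averaged, 3 against 3, the exact permutation p was 0.1 for either measure, the smallest that 20 regroupings can give. All levels below, and the counts and medians of gene lists where no other scaling is named, are those with scaling to the housekeeping genes. The 12 measured macrophage markers were all above the count minimum, with Cybb highest, and their summed normalized level was 31379 to 35540 in the 2 Gy samples, against 17164 to 18974 in the 9 Gy samples of day 3 and 15909 to 18840 in those of day 7. This sum is carried by the highest markers, with Cybb at 38.9% of it, and Cybb had a log2 fold change of -1.16 that was -0.01 with total-count scaling. Csf1r, in the same list, was at 1.77, and Tyrobp was not called at 0.12, or 1.26 with total-count scaling. What part the markers have in the gene values was not tested. Of the markers of other leukocytes, 2 of 17 for T cells, 3 of 11 for B cells, 1 of 7 for NK cells and 0 of 7 for neutrophils reached the count minimum. The summed level of the T cell markers, with Cd8a highest, was 264 to 329 with 2 Gy EVs and 149 to 218 with 9 Gy EVs. The other lists also had lower sums with 9 Gy EVs. With 2 Gy and 9 Gy EVs these were 229 to 308 and 187 to 240 for B cells, with overlap. They were 84.2 to 119 and 54.3 to 72.8 for NK cells, and 67.4 to 109 and 47.8 to 63.6 for neutrophils.

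**Figure D1:**
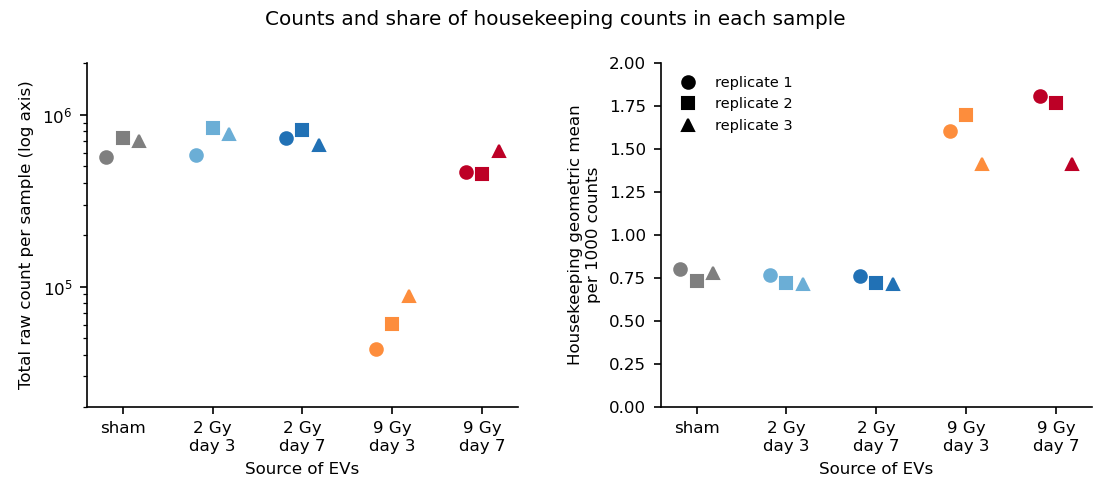
Total raw count of each sample on a log axis (left) and the geometric mean of the 14 housekeeping genes per 1000 counts (right), by source of EVs, with 1 point per sample and the marker showing the replicate number. The 9 Gy day 3 samples held 43176 to 87899 counts, and the housekeeping share was 1.41 to 1.81 in all 9 Gy samples against 0.714 to 0.768 in all 2 Gy samples.

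The separation of the 9 Gy days rests on the titles. Replicates 1 and 2 of the 9 Gy day 3 group carry a day label of 7 and were placed at day 3 by their titles. The resemblance of 2 samples was measured as the excess of their chi-square over sampling noise per 1000 counts, where 0 is no difference. It was 3.26 for 9 Gy day 3 replicate 2 and 9 Gy day 7 replicate 1, and 16.4 for the replicates 3 of both days. Within the 9 Gy day 3 group it ran from 16.9 to 195, and within the 9 Gy day 7 group from 19.9 to 197. Both pairs across the days thus lay closer than any pair of replicates within a 9 Gy day, and no pair of samples agreed within sampling noise. Pairs of a 9 Gy and a 2 Gy sample had values of 228 to 982. The day 7 comparison sets none of the samples with conflicting labels against others, but they share in its estimate of the spread, and without them it called 156 genes in place of 152, with 149 in common. Agreement of both days is given below as a description only.

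Between the doses, 179 of 264 tested genes were called (67.8%), taken as the mean of both days. A gene was called where its p from edgeR's quasi-likelihood F test, after Benjamini-Hochberg adjustment over all 264 genes, was under 0.05. With 9 Gy EVs 42 genes were higher (15.9%) and 137 lower (51.9%), and the median log2 fold change of all tested genes was -0.44. This split depended on the scaling. It was 89 higher and 77 lower after scaling to the median gene, 89 and 81 with TMM, 59 and 111 with the housekeeping genes of at least 100 counts, and 167 and 36 after scaling to total counts, where the median was 0.70. A total of 42 genes were called higher (15.9%) and 36 lower (13.6%) whether the samples were scaled to housekeeping genes, the median gene, TMM factors or total counts. These genes are called higher or lower under 4 scalings below, while other genes kept their sign without being called under all 4. The 42 were all the genes called higher with housekeeping scaling, and the 36 were all those called lower with total-count scaling. Thus 1 scaling decided each side, and the others removed no gene from it. A total of 28 tested genes reached the count minimum only through 1 dose, 23 through the 2 Gy samples and 5 through the 9 Gy samples, so that their raw means differed by the choice of genes, and the low totals of the 9 Gy day 3 group add to this. They include Cd80, Csf2, Hamp, Il12b and Il23a of the 36 lower genes and Atm, Smad5 and Traf6 of the 42 higher ones, whose values are given below as a description. Of the 236 genes above the minimum with both doses, 117 were lower (49.6%) and 39 higher (16.5%), with 31 lower and 39 higher under 4 scalings. The counts in the gene lists below are small and were not tested against the other genes, and each is to be read against the 51.9% lower and 15.9% higher of all tested genes. The levels of the 6 samples with 9 Gy EVs and the 6 with 2 Gy EVs did not overlap in 117 genes (44.3%), and of those above the minimum with both doses these were all 31 genes lower under 4 scalings and 20 of the 39 higher ones. The 36 lower genes also had a sham mean nearer to the 2 Gy mean than to the 9 Gy mean, as had 40 of the 42 higher genes. The sham mean lay within the range of the 2 Gy samples in 24 of the 36 and 38 of the 42. These counts include genes tested only through 1 dose and were not taken over all tested genes.

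**Figure D2:**
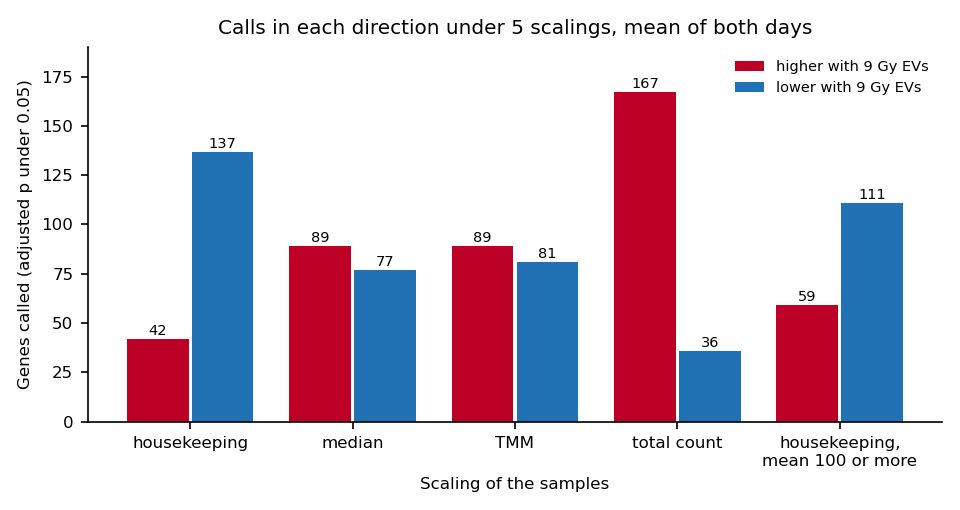
Number of genes called higher (red) or lower (blue) with 9 Gy EVs than with 2 Gy EVs, mean of both days, under 5 scalings of the samples (edgeR). Housekeeping scaling gave 42 higher and 137 lower genes, and total-count scaling 167 and 36.

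Of the IL-6 and IL-12 family cytokines, 5 genes were above the count minimum with both doses. All 5 were called lower with 9 Gy EVs with housekeeping scaling, and 2 of them, Il6 and Ebi3, under 4 scalings (median log2 fold change -1.26, against -0.37 and 49.6% lower over the 236 such genes). Il6 encodes a main inflammatory cytokine of LPS-treated macrophages. Its normalized counts were 4066, 2759 and 2602 in the 2 Gy day 3 samples, 3812, 2726 and 2098 in the 2 Gy day 7 samples, 29.1, 44.3 and 52.7 in the 9 Gy day 3 samples and 41.1, 38.4 and 58.4 in the 9 Gy day 7 samples. Every 9 Gy sample was below every 2 Gy sample, and the means differed 68.4-fold (log2 fold change -6.07, standard error 0.26, adjusted p = 3.0e-10 in edgeR). The sham samples, at 2692, 2163 and 4146, lay within or near the 2 Gy range. Il12b and Il23a encode the subunits p40 and p19 of IL-23, and p40 is also part of IL-12. Il23a was at 287 to 408 normalized counts with 2 Gy EVs and at 4.92 to 29.1 with 9 Gy EVs (log2 fold change -5.01). Il12b was at 2.52 to 7.85 with 9 Gy EVs against 65.1 to 108 with 2 Gy EVs (log2 fold change -4.02). Both genes were near the floor of the assay with 9 Gy EVs and were tested only because of their 2 Gy counts, so that a difference was built into their choice. The raw counts of Il12b were 1, 1 and 1 in the 9 Gy day 3 samples and 13, 4 and 7 in the 9 Gy day 7 samples, those of Il23a were 4, 1 and 2 on day 3 and 15, 13 and 21 on day 7, and those of Il6 on day 3 were 4, 9 and 13, while the background of the probes is not known. With counts under 20 set to 20, the log2 fold change was -5.43 for Il6, -3.30 for Il23a and -1.21 for Il12b. Ebi3, the shared subunit of IL-27 and IL-35, was at 451 to 774 against 2129 to 2549.7 (log2 fold change -2.02, standard error 0.13, adjusted p = 1.6e-08 in edgeR). Lif and Il6st, which encodes the receptor chain gp130 used by this family, had log2 fold changes of -1.26 and -0.79, but that of Lif was -0.17 and not called, and that of Il6st was 0.33, after scaling to total counts. Il27, the other chain of IL-27, was at -0.78 (standard error 0.31) for the mean (adjusted p = 0.0372 in edgeR), was called on neither day alone, lost its call without any 1 of 8 of the 12 samples, and was at 0.36 with total-count scaling.

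Il1a and Il1b fell with 9 Gy EVs, and the receptor gene Il1rl1 rose. Of 8 tested genes of the IL-1 family and inflammasome list, 5 were lower, 2 higher and 1 was not called in edgeR, against 51.9% lower and 15.9% higher over all tested genes (median -0.72, or 0.41 with total-count scaling, and 3 lower and 2 higher under 4 scalings). Il1b encodes the secreted IL-1β. It was at 3097, 4371 and 4599 normalized counts in the 2 Gy day 3 samples and 3947, 6834 and 6928 in the 2 Gy day 7 samples, and at 65.5, 59.0 and 479 on day 3 and 80.3, 61.0 and 499 on day 7 with 9 Gy EVs (log2 fold change -4.52, standard error 0.60, adjusted p = 1.6e-05 in edgeR). Il1a, which encodes IL-1α, was at 1259, 1597 and 1610.2 on day 3 and 1603, 1986 and 1879 on day 7 with 2 Gy EVs and at 36.4, 19.7 and 138 on day 3 and 20.5, 23.9 and 139.9 on day 7 with 9 Gy EVs (log2 fold change -4.65, standard error 0.48, adjusted p = 1.3e-06 in edgeR). In both genes replicate 3 of each 9 Gy group was several times higher than the other replicates, yet below every 2 Gy sample. Without replicate 3 of both 9 Gy groups, a choice made after the values were seen, the log2 fold changes were -6.20 for Il1b and -6.08 for Il1a. Leaving out replicate 3 of the 9 Gy day 3 group alone gave -5.40 for Il1b, and leaving out that of the 9 Gy day 7 group gave -5.38 for Il1a. The receptor antagonist gene Il1rn also had replicate 3 as the highest of each 9 Gy group, at 1347, 1273 and 6213 on day 3 and 1348, 1121 and 3982 on day 7 with 9 Gy EVs against 10989 to 14480 with 2 Gy EVs (log2 fold change -2.30, standard error 0.41, adjusted p = 2.5e-04 in edgeR). Without both replicates 3 its log2 fold change was -3.29, and without that of 9 Gy day 3 alone it was -2.89. Il1rl1 encodes ST2, the receptor of IL-33. It was at 45.1 to 94.6 normalized counts with 9 Gy EVs against 16.7 to 29.5 with 2 Gy EVs (log2 fold change 1.38, standard error 0.21, adjusted p = 6.3e-05 in edgeR), on raw counts of 10 to 13 in the 9 Gy day 3 samples. Il18 had a log2 fold change of -1.06, which was 0.05 after scaling to total counts.

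**Figure D3:**
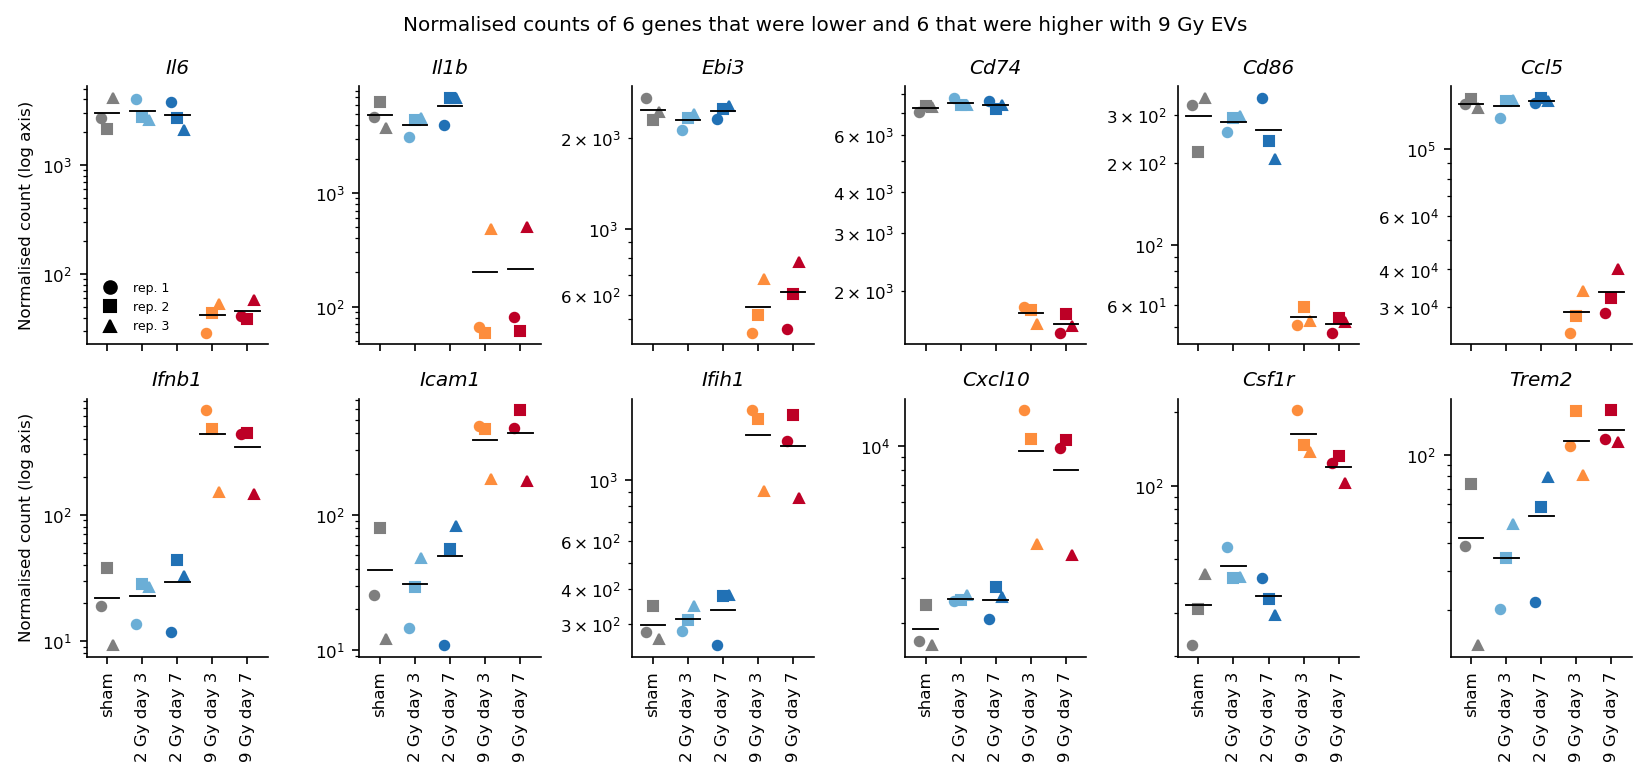
Normalized counts (log axes, scaled to the housekeeping genes) of 6 genes lower and 6 genes higher with 9 Gy EVs, by source of EVs, with 1 point per sample, the marker giving the replicate number and the line the mean of 3 samples. In each panel all 6 samples with 9 Gy EVs lie on one side of the 6 with 2 Gy EVs. Replicate 3 of both 9 Gy groups lies nearest to the 2 Gy samples in most panels. These include Il6, Il1b, Ccl5, Ifnb1, Icam1, Ifih1, Cxcl10, Csf1r and Trem2, but not Cd74 or Cd86.

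Ifnb1 and Ifih1 rose with 9 Gy EVs, and Irf7 fell. Ifnb1 encodes interferon-β and had the largest rise of the panel. It was at 13.5, 28.4 and 26.6 normalized counts in the 2 Gy day 3 samples, 11.8, 43.7 and 32.6 in the 2 Gy day 7 samples, 669.7, 477 and 150.04 in the 9 Gy day 3 samples and 436, 447 and 145 in the 9 Gy day 7 samples. The means differed 14.8-fold (log2 fold change 3.86, standard error 0.46, adjusted p = 5.9e-06 in edgeR), and replicate 3 of each 9 Gy group was the lowest of its group and still above every 2 Gy sample. Ifih1, the cytosolic sensor of double-stranded RNA MDA5, was at 1791, 1662 and 908 on day 3 and 1390.1, 1725 and 859 on day 7 with 9 Gy EVs against 250.5 to 380.04 with 2 Gy EVs (log2 fold change 2.10, standard error 0.20, adjusted p = 7.5e-07 in edgeR). In contrast, Irf7, the factor that amplifies interferon production, was at 575 to 1298 with 9 Gy EVs against 4245 to 4879 with 2 Gy EVs (log2 fold change -2.30, standard error 0.18, adjusted p = 1.0e-07 in edgeR). Of the 10 tested genes of type I interferon and its induction, 2 rose, 4 fell and 4 were not called, against the 51.9% lower and 15.9% higher over all tested genes (median -0.49, or 0.65 with total-count scaling, and 1 lower and 2 higher under 4 scalings, and with 3 lower and 2 higher of the 8 above the count minimum with both doses). Ifnar2, a chain of the interferon receptor, had a log2 fold change of -0.94, which was 0.18 after scaling to total counts.

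Among 14 tested interferon-stimulated genes, 6 were higher, 5 lower and 3 not called in edgeR, and the median was 0.52 against -0.44 over all tested genes (1.66 against 0.70 with total-count scaling). Cxcl10 encodes a chemokine for activated T cells. Its normalized counts were 2445, 2476 and 2577 on day 3 and 2074, 2779.8 and 2525 on day 7 with 2 Gy EVs and 13808, 10635 and 4099.8 on day 3 and 9838, 10573 and 3724 on day 7 with 9 Gy EVs (log2 fold change 1.82, standard error 0.29, adjusted p = 8.3e-05 in edgeR). Irgm1, an interferon-induced GTPase, and Ifi204, a sensor of DNA, rose by 1.00 and 0.60 on the log2 scale, and Irgm1 was not called with the samples of conflicting labels left out. Bst2, or tetherin, and Ifi35 fell by 1.56 and 1.47 on the log2 scale, and all 6 samples of either gene with 9 Gy EVs were below those with 2 Gy EVs. Under 4 scalings 6 genes of this list were higher and 3 lower, against 15.9% and 13.6% of all tested genes. Both tested CXC chemokine genes, Cxcl10 and Cxcl11, were called higher, but Cxcl11 had a log2 fold change of only 0.45 (adjusted p = 0.0497 in edgeR) and lost its call without any 1 of 9 of the 12 samples, with adjusted p up to 0.11.

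Il6 and Il1b with their falls, and Ifnb1, Icam1 and Cxcl10 with their rises, are known as NF-κB target genes, so stretches of their promoters are shown beside these opposite changes. The sequences are those of RefSeq for build GRCm38.p6, read 5′ to 3′ on the strand of the gene and ending at or before its annotated start. Capitals mark the letters GGANNTTCC, used here for the NF-κB core, and GAAANNGAA, used for the interferon response element core, on either strand. The NF-κB core lies 43 bases before the annotated start of Il6, 115 before that of Ifnb1, 153 before that of Icam1 and 158 before that of Cxcl10, counted from its first base. Neither set of letters is in the 250 bases before the start of Il1b, of which the last 120 are shown.
Il6, chr5:30013031-30013113 (+ strand): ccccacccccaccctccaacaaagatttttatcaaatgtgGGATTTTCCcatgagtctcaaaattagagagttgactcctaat
Il1b, chr2:129371140-129371259 (- strand): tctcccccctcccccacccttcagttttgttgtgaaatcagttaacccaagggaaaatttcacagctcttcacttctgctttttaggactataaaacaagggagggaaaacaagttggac
Ifnb1, chr4:88522861-88522949 (- strand): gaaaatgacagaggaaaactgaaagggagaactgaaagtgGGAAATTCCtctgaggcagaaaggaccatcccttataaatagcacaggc
Icam1, chr9:21015747-21015835 (+ strand): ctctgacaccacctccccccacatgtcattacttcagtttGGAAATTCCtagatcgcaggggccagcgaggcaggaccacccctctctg
Cxcl10, chr5:92348999-92349139 (- strand): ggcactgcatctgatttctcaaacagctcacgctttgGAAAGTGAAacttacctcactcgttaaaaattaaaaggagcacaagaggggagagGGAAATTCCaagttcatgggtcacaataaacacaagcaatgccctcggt
Of the 561 panel symbols, 545 matched the gene table directly and 14 as older names, and 201 of the 264 tested genes had a promoter sequence. Within 250 bases before the start, the NF-κB core letters were found in 5 of 29 genes lower under 4 scalings (17.2%), in 4 of 33 higher ones (12.1%), in 20 of all 201 tested genes (9.95%) and in 4.12% of all 27025 genes with a sequence. The interferon response element letters were found in 5 of 29 lower genes (17.2%), 5 of 33 higher genes (15.2%), 24 of 201 tested genes (11.9%) and 8.18% of all genes with a sequence. The letters were thus present on both sides of the comparison, and a match is a description of the sequence, not evidence of binding.

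Of the genes of antigen presentation, Cd74, B2m, Psmb9 and Psmb10 were lower with 9 Gy EVs under 4 scalings. Cd74 encodes the invariant chain that escorts MHC class II molecules, and it had the smallest adjusted p of the panel. It was at 7785, 7372 and 7393 normalized counts on day 3 and 7594, 7195 and 7393 on day 7 with 2 Gy EVs and at 1783, 1750.4 and 1577 on day 3 and 1489, 1692 and 1556 on day 7 with 9 Gy EVs (log2 fold change -2.18, standard error 0.07, adjusted p = 2.1e-11 in edgeR). The spread within each dose was small, with means of 7455 ± 205 and 1641 ± 118 (SD, n = 6 each), a 4.54-fold difference. All 3 tested class II genes were called lower (median -1.15, or -0.02 with total-count scaling, and 1 lower and 0 higher under 4 scalings, and with 2 lower and 0 higher of the 2 above the count minimum with both doses). Of these, H2-DMa (-0.78) turned to 0.34 with total-count scaling, and H2-Ob (-1.15) was then no longer called and was at 0.25 with counts under 20 set to 20. H2-Ob was above the count minimum only through the 2 Gy samples. All 4 tested genes of class I and peptide loading were called lower as well (median -0.92, or 0.22 with total-count scaling, and 1 lower and 0 higher under 4 scalings). B2m, the light chain of class I molecules, was at 9209 to 12319.8 against 30515 to 33065 (log2 fold change -1.496, standard error 0.07, adjusted p = 1.1e-09 in edgeR) and was lower under 4 scalings. H2-K1 and Tapbp had log2 fold changes of -0.88 and -0.96, which became 0.26 and 0.19 with total-count scaling. In the proteasome list, 5 of 6 genes were lower and 1 higher (median -0.58, or 0.54 with total-count scaling, and 2 lower and 1 higher under 4 scalings). The immunoproteasome subunits Psmb9 and Psmb10, which shape peptides for class I, fell by 1.61 (standard error 0.14) and 1.49 (standard error 0.12) on the log2 scale and were lower under 4 scalings. The only higher subunit, Psmd7 (0.33), lost its call without any 1 of 7 samples, with adjusted p up to 0.0781 in edgeR.

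The costimulatory ligands that T cells read together with these peptides include Cd86, which was lower under 4 scalings. Cd86 was at 259, 293 and 296 normalized counts on day 3 and 346, 241 and 206 on day 7 with 2 Gy EVs and at 51.0, 59.0 and 52.7 on day 3 and 47.7, 54.1 and 52.0 on day 7 with 9 Gy EVs (log2 fold change -2.37, standard error 0.17, adjusted p = 3.0e-08 in edgeR). Its raw counts in the 9 Gy day 3 samples were 7 to 13. Cd80, the other ligand of CD28, was at 8.11 to 25.2 with 9 Gy EVs against 46.1 to 96.9 with 2 Gy EVs (log2 fold change -2.03, above the count minimum only through the 2 Gy samples), with raw counts of 2 to 4 in the 9 Gy day 3 samples. Of 7 tested costimulatory and checkpoint ligands, 5 were lower, 0 higher and 2 not called (median -1.26, or -0.10 with total-count scaling, and 2 lower and 0 higher under 4 scalings, and with 4 lower and 0 higher of the 6 above the count minimum with both doses). Cd40, Cd83 and Cd274, which encodes PD-L1, had log2 fold changes of -1.43, -1.26 and -1.16, and these were -0.28, -0.10 and -0.04 and not called with total-count scaling.

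CC chemokines recruit monocytes and T cells, and Ccl3 and Ccl5 had the highest mean shares of the counts. Ccl5, or RANTES, was at 126575, 144308 and 145586 normalized counts on day 3 and 141826, 148110 and 144975 on day 7 with 2 Gy EVs and at 24734, 28094 and 33914 on day 3 and 28808, 32115 and 40092 on day 7 with 9 Gy EVs (log2 fold change -2.18, standard error 0.10, adjusted p = 3.7e-10 in edgeR). Its share of all counts was 20.6% on average with 2 Gy EVs and 9.95% with 9 Gy EVs. Ccl3, or MIP-1α, was 2.39-fold lower, at 55093 to 82885 against 159282 to 176683 (log2 fold change -1.26, standard error 0.10, adjusted p = 1.0e-07 in edgeR), while its share of the counts was 22.4% against 24.5%. Ccl9 was at 10875 to 22488 against 35892 to 43401 (log2 fold change -1.47, standard error 0.19, adjusted p = 1.6e-05 in edgeR). Of the 8 tested CC chemokines, 4 fell, 0 rose and 4 were not called (median -0.88, or 0.21 with total-count scaling, and 3 lower and 0 higher under 4 scalings, and with 3 lower and 0 higher of the 7 above the count minimum with both doses). The fourth of the lower genes, Ccl12, had a log2 fold change of -1.24 that was -0.13 and not called with total-count scaling. Ccl12 was above the count minimum only through the 2 Gy samples, which favored a fall. Ccl2 and Ccl4 were not called, with values of -0.51 (standard error 0.36) and -0.33 (standard error 0.15), and that of Ccl2 was -1.37 without replicate 3 of both 9 Gy groups. The signs of both turned with total-count scaling (0.55 and 0.84). Of the 4 tested chemoattractant receptors and related genes, 3 were lower and 1 was higher (median -1.13, or 0.00 with total-count scaling, and 1 lower and 1 higher under 4 scalings). The chemerin-binding receptor gene Ccrl2 fell by 1.86 (standard error 0.15) on the log2 scale and was lower under 4 scalings. Plaur, the receptor of the protease urokinase, had a log2 fold change of -1.16 that was -0.04 with total-count scaling. Plau, which encodes urokinase itself, was higher by 0.98 (standard error 0.33) on the log2 scale, a call lost without 9 Gy day 3 replicate 2 (adjusted p = 0.0866 in edgeR).

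In the colony-stimulating factor axis, the ligand gene Csf1 fell and its receptor gene Csf1r rose. Csf1 and Csf2 encode M-CSF and GM-CSF, growth factors of macrophages. Csf1 was at 14.6 to 31.2 normalized counts with 9 Gy EVs against 111 to 136 with 2 Gy EVs (log2 fold change -2.35, standard error 0.23, adjusted p = 7.0e-07 in edgeR), and Csf2 at 2.52 to 20.3 against 35.1 to 187 (log2 fold change -3.50). Csf2 reached the count minimum only through its 2 Gy samples and had to differ. Raw counts were low, 2, 5 and 6 for Csf1 and 1, 1 and 5 for Csf2 in the 9 Gy day 3 samples, and 6, 4 and 10 for Csf2 in the 9 Gy day 7 samples. With counts under 20 set to 20, the log2 fold changes were -1.23 and -1.15. Csf1r, the receptor of M-CSF and a defining gene of macrophages, was at 56.2, 41.8 and 42.2 on day 3 and 41.7, 34.3 and 29.5 on day 7 with 2 Gy EVs and at 204, 148 and 138 on day 3 and 124, 132 and 102 on day 7 with 9 Gy EVs (log2 fold change 1.77, standard error 0.17, adjusted p = 7.0e-07 in edgeR). Every 9 Gy sample was above every 2 Gy sample and above the sham samples, at 22.2, 31.2 and 43.5. Il2rg, the common gamma chain of several cytokine receptors, fell by 1.92 (standard error 0.11) on the log2 scale. Il15ra rose by 0.94 (standard error 0.26), but was not called once the samples of conflicting labels were left out. Of the 7 tested genes of this list, 2 were higher and 3 lower (median -0.32, or 0.81 with total-count scaling, and 3 lower and 2 higher under 4 scalings, and with 2 lower and 2 higher of the 6 above the count minimum with both doses).

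Icam1 rose with 9 Gy EVs, and the integrin genes Itgal and Itgam fell. Icam1, the ligand of the β2 integrins, was at 14.6, 29.3 and 47.7 normalized counts on day 3 and 10.9, 55.7 and 82.1 on day 7 with 2 Gy EVs and at 451, 428 and 182 on day 3 and 435, 589.96 and 179 on day 7 with 9 Gy EVs (log2 fold change 3.26, standard error 0.52, adjusted p = 9.6e-05 in edgeR). The 2 Gy samples themselves spread several-fold, with replicate 1 lowest on both days, and the 9 Gy samples were all above them. Itgal and Itgam encode the α chains of the β2 integrins LFA-1 and Mac-1, which bind ICAM-1. Itgal was at 34.4 to 70.0 with 9 Gy EVs against 96.7 to 420.04 with 2 Gy EVs (log2 fold change -2.57, standard error 0.41, adjusted p = 9.7e-05 in edgeR) and Itgam at 78.7 to 104 against 232 to 359 (log2 fold change -1.58, standard error 0.13, adjusted p = 1.9e-07 in edgeR), while Itga4 rose by 0.71 (standard error 0.17) on the log2 scale. Of 8 tested genes of the list, 2 rose, 5 fell and 1 was not called, with 51.9% lower and 15.9% higher over all tested genes (median -0.50, or 0.65 with total-count scaling, and 2 lower and 2 higher under 4 scalings).

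Fc receptors take up antibody-coated particles, and 7 of the 10 tested genes of this list were lower, 0 higher and 3 not called (median -1.22, or -0.09 with total-count scaling, and 1 lower and 0 higher under 4 scalings, and with 5 lower and 0 higher of the 8 above the count minimum with both doses). Fcgr2b, the inhibitory Fcγ receptor, was at 51.0, 68.8 and 199 normalized counts on day 3 and 47.1, 35.9 and 90.2 on day 7 with 9 Gy EVs against 434 to 652 with 2 Gy EVs (log2 fold change -2.67, standard error 0.30, adjusted p = 3.9e-06 in edgeR), and replicate 3 was the highest of both 9 Gy groups. It was the only member lower under 4 scalings. Fcgr1, Fcer1g, Fyn and Src had log2 fold changes of -1.45, -1.23, -1.35 and -1.35, of which none was called with total-count scaling, at -0.36, -0.09, -0.23 and -0.24. In the list of scavenger and C-type lectin receptors, 1 of 5 genes was higher and 2 were lower (median -0.20, or 0.95 with total-count scaling, and 0 lower and 1 higher under 4 scalings). The higher gene was Trem2, a lipid-binding receptor of tissue macrophages, at 109, 157 and 81.1 on day 3 and 117, 158 and 114 on day 7 with 9 Gy EVs and 20.2, 34.3 and 48.6 on day 3 and 21.8, 58.3 and 79.0 on day 7 with 2 Gy EVs (log2 fold change 1.51, standard error 0.38, adjusted p = 0.00286 in edgeR). Its samples did not overlap by a narrow margin, and it was not called with the samples of conflicting labels left out (log2 fold change 1.26).

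In the TNF superfamily list 3 of 11 genes were higher, 5 lower and 3 not called, against 51.9% lower and 15.9% higher over all tested genes (median -0.30, or 0.84 with total-count scaling, and 1 lower and 3 higher under 4 scalings, and with 5 lower and 2 higher of the 10 above the count minimum with both doses). Tnfrsf1b encodes TNF receptor 2 and was at 166 to 468 normalized counts with 9 Gy EVs against 1338 to 1706 with 2 Gy EVs (log2 fold change -2.42, standard error 0.28, adjusted p = 4.0e-06 in edgeR). Ltb, or lymphotoxin-β, was at 174 to 325 with 9 Gy EVs against 39.3 to 117 with 2 Gy EVs (log2 fold change 1.84, standard error 0.29, adjusted p = 9.6e-05 in edgeR), whereas Lta, or lymphotoxin-α, had a log2 fold change of -1.14, not called with total-count scaling (-0.03). Tnf itself was called at -0.45 (standard error 0.18), with the sign turned under median (0.02), TMM (0.04) and total-count scaling (0.72), and its call was lost without any 1 of 6 of the 12 samples.

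In the NF-κB list, with housekeeping scaling, 8 of 12 tested genes were not called, 3 were lower and 1 was higher. The list median moved from 0.02 to 0.49 with TMM and 1.15 with total-count scaling, and 1 gene each was lower and higher under 4 scalings. Nfkb2 encodes p100, the subunit of the alternative NF-κB pathway. It was at 673 to 1066 normalized counts with 9 Gy EVs and 3001 to 4432 with 2 Gy EVs (log2 fold change -2.22, standard error 0.13, adjusted p = 6.6e-09 in edgeR), and it was the only member lower under 4 scalings. Rela, the p65 subunit, was higher by 0.41 (standard error 0.14) on the log2 scale and was not called with the samples of conflicting labels left out. Nfkb1 was not called with housekeeping scaling, at 0.28 (standard error 0.16), but was called at 0.76 with TMM and 1.43 with total-count scaling. The inhibitors Nfkbia and Tnfaip3, which encode IκBα and A20, had log2 fold changes of -0.56 and -0.66, which turned to 0.58 and 0.47 with total-count scaling. Of 14 tested genes of Toll-like receptors and their signaling, 7 were lower, 1 higher and 6 not called (median -0.44, or 0.71 with total-count scaling, and 1 lower and 1 higher under 4 scalings, and with 6 lower and 0 higher of the 11 above the count minimum with both doses), which is close to the 51.9% lower and the median of -0.44 over all tested genes. Tollip, an inhibitor of IL-1 receptor and Toll-like receptor signaling, was at 182 to 293 against 757 to 852 (log2 fold change -1.81, standard error 0.11, adjusted p = 1.2e-08 in edgeR), and was lower under 4 scalings. Traf6, the ubiquitin ligase downstream of MyD88, had a log2 fold change of 1.45 on raw counts of 8 to 17 in the 9 Gy day 3 samples, and was above the count minimum only through the 9 Gy samples. Without 2 Gy day 3 replicate 1, the highest of the 2 Gy samples, its value was 2.06. Cd14, the co-receptor of LPS, had a log2 fold change of -0.98, which was 0.12 with total-count scaling.

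Of the 13 tested transcription factors of macrophage activation, 6 were lower, 1 higher and 6 not called, close to the 51.9% lower and 15.9% higher over all tested genes (median -0.52, or 0.60 with total-count scaling, and 1 lower and 1 higher under 4 scalings, and with 5 lower and 1 higher of the 11 above the count minimum with both doses). Cebpb, which encodes C/EBPβ, a factor of inflammatory genes, was at 320.3 to 706 normalized counts with 9 Gy EVs against 1456 to 2179 with 2 Gy EVs (log2 fold change -1.92, standard error 0.25, adjusted p = 1.5e-05 in edgeR), and Nfil3 rose by 0.52 (standard error 0.13) on the log2 scale. Ikzf2, above the count minimum only through the 2 Gy samples, had a log2 fold change of -1.53. It was not called with total-count scaling (-0.41) and was at 0.31 with counts under 20 set to 20. Of 10 tested JAK kinases and STAT factors, 6 were lower, against 51.9% of all tested genes, and 1 was higher (median -0.37, or 0.77 with total-count scaling, and 0 lower and 1 higher under 4 scalings, and with 6 lower and 1 higher of the 9 above the count minimum with both doses). The higher gene was Tyk2, at 0.75 (standard error 0.17). Among 5 tested MAP kinase genes 2 were higher and 1 lower (median -0.11, or 1.01 with total-count scaling, and 0 lower and 2 higher under 4 scalings). Mapkapk2, which stabilizes cytokine mRNAs downstream of p38, rose by 0.74 (standard error 0.16), and all 6 samples with 9 Gy EVs were above those with 2 Gy EVs. Map4k4 had a log2 fold change of -1.52, not called with total-count scaling (-0.40).

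Of 4 tested genes of nitric oxide, oxidase and prostaglandin enzymes, 3 were lower and 1 was not called (median -0.94, or 0.20 with total-count scaling, and 1 lower and 0 higher under 4 scalings). Ptgs2, or cyclooxygenase-2, which makes prostaglandins, was at 7315, 6259 and 16363 normalized counts on day 3 and 6299, 4078 and 13676 on day 7 with 9 Gy EVs and at 33401 to 40586 with 2 Gy EVs (log2 fold change -2.00, standard error 0.28, adjusted p = 2.7e-05 in edgeR). Nos2, the inducible nitric oxide synthase, was not called, at -0.40 (standard error 0.20), and its sign turned under median (0.08), TMM (0.06) and total-count scaling (0.71). Cybb, a subunit of the NADPH oxidase, had a log2 fold change of -1.16, which was -0.01 and not called with total-count scaling. Cfb, or complement factor B, was at 9.83 to 51.5 with 9 Gy EVs against 137 to 179 with 2 Gy EVs (log2 fold change -2.40, standard error 0.30, adjusted p = 8.6e-06 in edgeR), on raw counts of 2 to 12 in the 9 Gy day 3 samples, while C1qbp rose by 0.39 (standard error 0.09) on the log2 scale and 4 of the 6 tested complement genes were not called (median -0.15, or 0.96 with total-count scaling, and 1 lower and 1 higher under 4 scalings). In the list of DNA damage and apoptosis 6 of 10 genes were not called (median 0.14, or 1.29 with total-count scaling, and 0 lower and 2 higher under 4 scalings, and with 1 lower and 1 higher of the 8 above the count minimum with both doses). Atm, the kinase that responds to DNA breaks, was at 80.1, 34.4 and 24.3 on day 3 and 39.9, 50.9 and 24.9 on day 7 with 9 Gy EVs against 15.05 to 21.1 with 2 Gy EVs (log2 fold change 1.23, above the count minimum only through the 9 Gy samples), on raw counts of 6 to 11 in the 9 Gy day 3 samples. Bcl2, above the count minimum only through the 2 Gy samples, had a log2 fold change of -1.16. Its value was -0.04 and not called with total-count scaling and 0.21 with counts under 20 set to 20. Of 12 tested genes of the IL-10 axis and feedback, 7 were not called and 3 were lower (median -0.06, or 1.07 with total-count scaling, and 0 lower and 2 higher under 4 scalings, and with 3 lower and 1 higher of the 11 above the count minimum with both doses). The higher ones were Tgfbr2 at 0.55 (standard error 0.16) and Smad5 at 0.93, above the count minimum only through the 9 Gy samples. Of the 2 tested genes of autophagy and NOD receptors, 1 was lower (median -0.12, or 1.01 with total-count scaling, and 0 lower and 0 higher under 4 scalings). Among 9 tetraspanin and pan-leukocyte genes 6 were lower and 1 higher, against 51.9% lower and 15.9% higher over all tested genes (median -0.54, or 0.61 with total-count scaling, and 1 lower and 1 higher under 4 scalings). Cd82 fell by 1.87 (standard error 0.12) on the log2 scale under 4 scalings, Cd81 had a log2 fold change of -0.97 that was 0.16 with total-count scaling, and the transferrin receptor gene Tfrc rose by 0.93 (standard error 0.10).

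**Figure D4:**
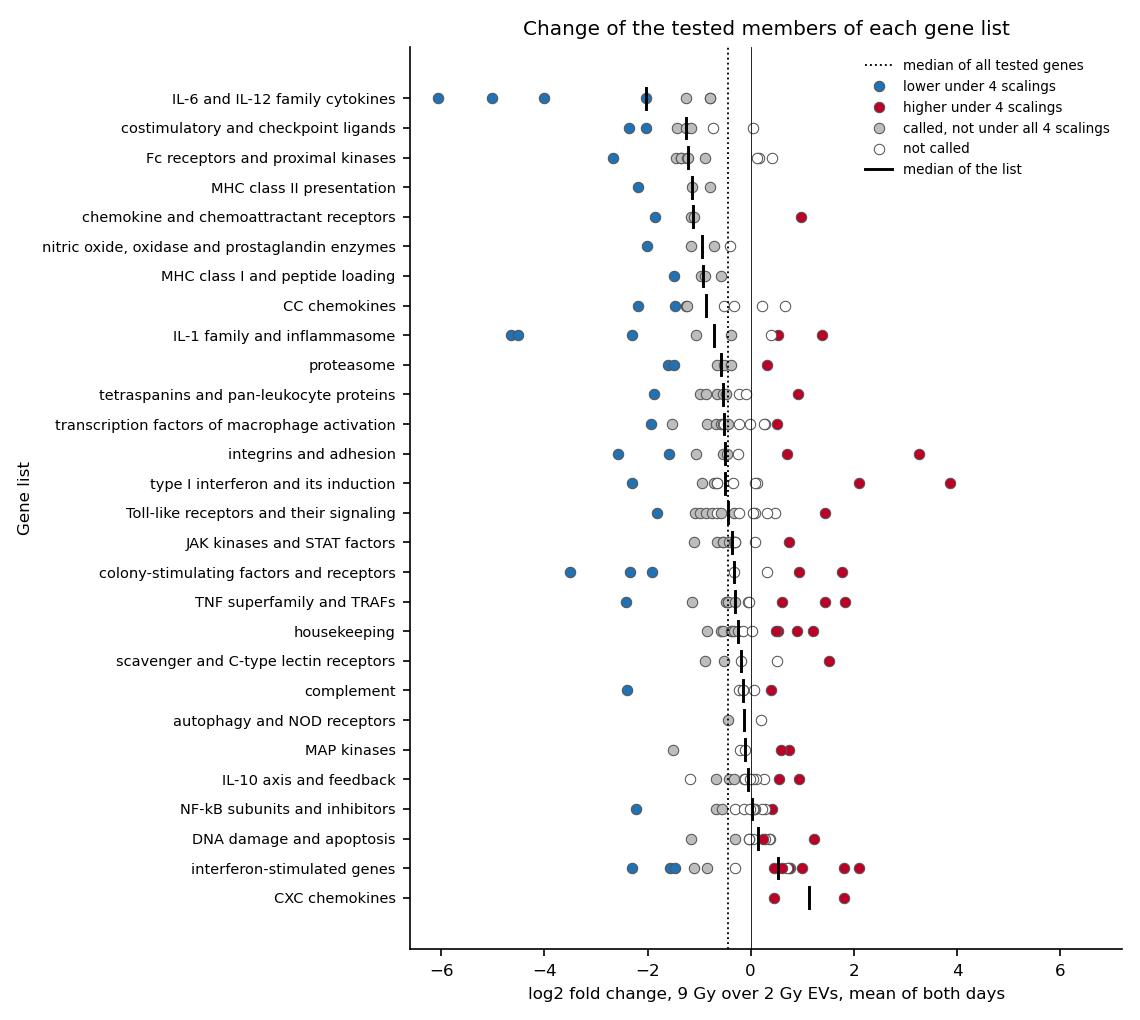
Log2 fold change of 9 Gy over 2 Gy EVs, mean of both days, for the tested members of 28 gene lists, with 1 point per gene, a black bar for the median of the list and a dotted line for the median of all tested genes (-0.44). Blue and red points were lower or higher under 4 scalings, grey points were called with housekeeping scaling but not under all 4, and open points were not called.

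The housekeeping genes, to which the samples were scaled, did not keep 1 ratio among themselves. Of 13 tested, 4 were higher with 9 Gy EVs (Tubb5 1.20, Ppia 0.90, Alas1 0.53 and Polr2a 0.49), 7 were lower and 2 were not called in edgeR (median -0.24, or 0.90 with total-count scaling, and 0 lower and 4 higher under 4 scalings). The higher ones were higher under 4 scalings. The lower ones, Rpl19 at -0.84 and Gapdh at -0.55 among them, were not, and both were above 0 with total-count scaling (0.29 and 0.59).

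Within single days the numbers of called genes were similar with housekeeping scaling. On day 3, 133 genes differed (50.4%), 29 higher (11%) and 104 lower (39.4%), and on day 7, 152 genes differed (57.6%), 27 higher (10.2%) and 125 lower (47.3%). The split again depended on the scaling, with 69 higher and 61 lower on day 3 and 69 and 76 on day 7 after scaling to the median gene, 67 and 64 on day 3 and 75 and 74 on day 7 with TMM, and 144 and 29 on day 3 and 160 and 31 on day 7 with total counts. With counts under 20 set to 20, it was 97 and 83 on day 3 and 30 and 129 on day 7. Both days called 116 genes, all in the same direction, 20 higher and 96 lower, which were 87.2% of the day 3 calls and 76.3% of the day 7 calls. Under 4 scalings 20 genes were higher and 25 lower on both days. The fold changes of both days had a Pearson r of 0.957 and a Spearman rho of 0.934 across the 264 genes, which are not independent replicates, and 89.0% of genes had the same sign. Il6 had log2 fold changes of -6.17 on day 3 and -5.96 on day 7, Il23a of -4.80 on day 3 and -5.22 on day 7 and Il1a of -4.42 on day 3 and -4.88 on day 7. At the other end Ifnb1 stood at 4.18 on day 3 and 3.53 on day 7, Icam1 at 3.49 on day 3 and 3.03 on day 7 and Ifih1 at 2.21 on day 3 and 1.98 on day 7. These 6 genes had the largest falls and rises on either day, and Il23a is one of those tested only through their 2 Gy counts.

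The test of the difference between the days called 0 of 264 genes (0%) in edgeR, with 4 at an unadjusted p under 0.05, and DESeq2 called 0 with 2 unadjusted. The 4 genes were H2-Ob, Irak4 and Ifngr1, with day 7 minus day 3 differences of -1.18, -0.72 and -1.09 on the log2 scale, and Xcl1 with a difference of 1.09, each with an adjusted p of 0.99 in edgeR. The median absolute difference between the days was 0.22, and the median standard error of the difference was 0.34. The 9 Gy day 3 samples were shallow and 2 of them carry the other day's label. Without those 2 samples 66 genes were called on day 3, a fit in which the single 9 Gy sample left took its spread from the other groups. With both placed at day 7 the day 3 count was 61.

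**Figure D5:**
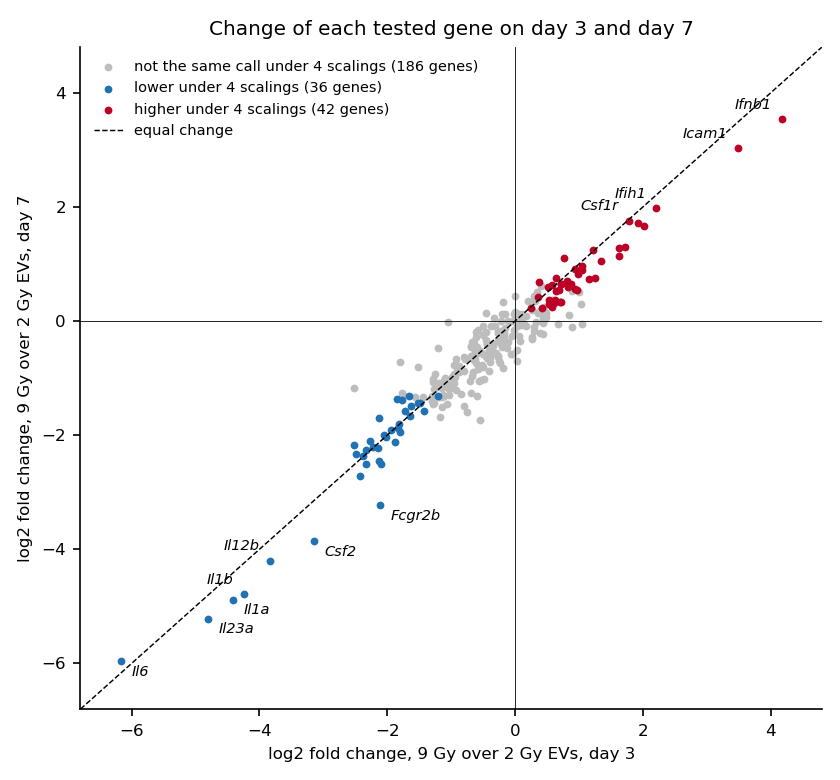
Log2 fold change of 9 Gy over 2 Gy EVs on day 3 (horizontal) and day 7 (vertical) for each of the 264 tested genes, with the 36 genes lower (blue) and 42 higher (red) under 4 scalings and the line of equal change. The points lie along the line, from Il6 at the lower left to Ifnb1 at the upper right.

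Replicate 3 of the 9 Gy groups stood nearest to the 2 Gy samples in many genes. Among the 36 lower genes it was the 9 Gy sample nearest to 2 Gy in 27 on day 3 and in 30 on day 7, and in 27 on both days. Among the 42 higher genes the counts were 25, 31 and 22. These counts include genes tested only through 1 dose and were not taken over all tested genes. The housekeeping share of replicate 3 per 1000 counts was 1.41 on either day, against 1.60 to 1.81 in the other 9 Gy samples, and the part of this in the gene values was not tested. Besides Il1a, Il1b, Il1rn and Ccl2, leaving out both replicates 3 moved 5 named falls by more than 1.5-fold, to -2.60 for Ptgs2, -3.21 for Cfb, -4.18 for Csf2, -3.34 for Fcgr2b and -3.09 for Hamp. Without replicate 3 of both 9 Gy groups 174 genes were called, 42 higher and 132 lower. Of the 42 genes higher under 4 scalings, 12 lost their call without at least 1 of the 12 samples, and 19 did with the samples of conflicting labels left out. Of the 36 lower genes, which include the 5 tested only through their 2 Gy counts, 0 lost theirs in either case. The choice of the genes makes the counts of both directions unlike. The higher genes were set by the housekeeping call, which these checks repeat. The lower ones also had to be called with total-count scaling, where the median was 0.70 in place of -0.44. They thus had to lie well below 0 with housekeeping scaling. The genes that lost a call without 1 sample were Bax, Cd109, Cxcl11, Ikbkap, Il1rap, Map4k1, Mx1, Plau, Pml, Psmd7, Traf5 and Traf6, with the highest adjusted p without 1 sample between 0.058 and 0.16 in edgeR. With the replicate number as a random block within each dose (limma), 9 of the 42 higher genes were not called, namely Bax, Cd109, Cxcl11, Ikbkap, Il1rap, Map4k1, Mx1, Psmd7 and Tnfrsf11a. For 4 of the genes that depended on 1 sample, Cd109, Plau, Pml and Traf5, the sample was 9 Gy day 3 replicate 2.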

How the data were processed

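Gene expression in 15 samples of RAW 264.7 macrophages was counted on nanoString's immunology panel for mouse mRNAs. The deposited values were raw counts per gene as whole numbers, before the normalization that the authors ran in nSolver, and without the counts of control probes. Samples were grouped by their titles. Each sample's library size was set by the geometric mean of its 14 housekeeping genes, of which 13 reached the count minimum. The test covered the 264 of 561 genes whose raw counts averaged 20 or more in the 12 irradiated-group samples, in 1 quasi-likelihood fit over all 5 groups (edgeR 4.0.16, prior count 0.125, R 4.3.3), with Benjamini-Hochberg adjustment and a threshold of 0.05. The standard error was the absolute log2 fold change divided by the square root of F. DESeq2 1.42.0 and limma 3.58.1 were used in alternatives, as were other scalings, filters, a block for the replicate number and leaving out each sample.

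Same-numbered samples of both days within a dose had correlated deviations from their group means (0.36 to 0.76 at 9 Gy, 0.41 to 0.79 at 2 Gy), but some samples of different number were as close (0.44 for 9 Gy day 3 replicate 1 with day 7 replicate 2, against 0.36 for its own number, and 0.64 for 2 Gy day 3 replicate 3 with day 7 replicate 2, against 0.58), so that the numbers are no more than a hint of pairing, while same-numbered samples of different doses ranged from -0.14 to 0.25. The gene lists and compared samples were chosen with earlier results of these data known, and 5 genes were taken out of the transcription factor and MAP kinase lists after their values were seen, because of their function. The genes named include the 12 largest rises and 12 largest falls that held under 4 scalings without overlap. Others were drawn from the leading members of each list, the largest within-day changes and the housekeeping genes. Further ones came from the genes that the study names for this panel and from genes that held under 4 scalings. Not every gene of these groups is named. Scripts were tested on simulated data. 1 gene of the lists is counted in them but not reported here by name.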

Additional observations from a re-analysis of the deposited data

How the results depend on the processing

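The counts of genes called for the mean of both days, day 3 and day 7 stayed within 1.5 times of the values in the report in most alternatives, while the split into higher and lower genes changed with the scaling (88 and 83 for the mean with DESeq2's own size factors) and with counts under 20 set to 20 (70 and 107 for the mean, where 149 of the 179 calls were shared, and 97 and 83 for day 3, where 109 of 133 were). The exceptions were day 3 with the samples of conflicting labels placed at day 7 (61 genes) or left out (66), and day 7 with no count filter, where 561 genes were tested and 233 called. The difference between the days rose from 0 to 68 genes with counts under 20 set to 20, all more negative on day 7, and this follows from its construction, since it raises values in the shallow 9 Gy day 3 group. Without each sample in turn, the counts were 164 to 179 for the mean of both days, 99 to 133 for day 3, 127 to 154 for day 7 and 0 to 0 for the difference between the days. The lowest counts came without 9 Gy day 3 replicate 2 for the mean, and without that sample or 2 Gy day 3 replicate 2 in the case of day 3.

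With the replicate number as a block over all groups, which the samples of the 2 doses share in number only (correlations of same-numbered deviations between -0.14 and 0.25), edgeR called 182 genes for the mean, 138 for day 3, 158 for day 7 and 0 for the difference between the days. Within a dose the numbers are no more than a hint of pairing, since samples of different number correlated as highly in places, and a block for them, chosen after seeing the data, gave 151 genes for the mean, 139 for day 3, 129 for day 7 and 0 for the difference (limma, estimated correlation 0.56), against 184, 151, 136 and 0 without it. Under that block 9 of the 42 higher genes and 0 of the 36 lower ones lost their call. The lower ones had also been chosen by their total-count call, so both counts are not a like comparison. In edgeR the difference between the days with that block again gave 0 genes, with 41 at an unadjusted p under 0.05.

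Log2 fold changes that were below 0 with housekeeping scaling turned positive in 17 named genes with total-count scaling, at Il18 0.053, Cd14 0.12, Cd81 0.16, Ifnar2 0.18, Tapbp 0.19, H2-K1 0.26, Rpl19 0.29, Il6st 0.33, H2-DMa 0.34, Il27 0.36, Tnfaip3 0.47, Ccl2 0.55, Nfkbia 0.58, Gapdh 0.59, Nos2 0.71, Tnf 0.72 and Ccl4 0.84. With TMM scaling they were Tnf 0.041, Nos2 0.059 and Ccl4 0.15, with median scaling Tnf 0.023, Nos2 0.078 and Ccl4 0.14, and with DESeq2's own size factors Tnf 0.0075, Nos2 0.042 and Ccl4 0.12. With counts under 20 set to 20 they were Bcl2 0.21, H2-Ob 0.25 and Ikzf2 0.31. The cause of these turns beyond the scaling itself was not tested. Depth limits the values of the 9 Gy day 3 group, where counts of 1 to 13 carried the lowest genes and the background of the probes is not known.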

Other observations

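Among the genes lower or higher under 4 scalings, 11 belonged to none of the gene lists, and they are named here because of their values. Hamp encodes hepcidin, the hormone that limits iron export from cells, and was at 4.92 to 24.3 normalized counts with 9 Gy EVs against 55.4 to 88.4 with 2 Gy EVs (log2 fold change -2.30), on raw counts of 1 to 6 in the 9 Gy day 3 samples. It reached the count minimum only through its 2 Gy samples and had to differ, so no test is given. The transferrin receptor gene Tfrc, which takes up iron, was at 538 to 728 with 9 Gy EVs and 272 to 401 with 2 Gy EVs. Bst1, a surface enzyme that acts on NAD, was at 131 to 227 with 9 Gy EVs against 460.1 to 594 with 2 Gy EVs (log2 fold change -1.65, standard error 0.14, adjusted p = 2.5e-07 in edgeR). Crlf2, a receptor chain for the cytokine TSLP, was at 88.5 to 136 with 9 Gy EVs against 325 to 371 with 2 Gy EVs (log2 fold change -1.65, standard error 0.13, adjusted p = 1.1e-07 in edgeR). In Tfrc, Bst1 and Crlf2 the 6 samples of each dose did not overlap.

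The higher genes outside the lists were Tcf4, Ikbkap, Phlpp1, Tnfrsf11a, Cd109, Rae1, Pml and Mif. Tcf4, an E-protein transcription factor, was at 342, 231 and 158 normalized counts on day 3 and 208, 258 and 139.9 on day 7 with 9 Gy EVs and 95.1 to 129 with 2 Gy EVs (log2 fold change 1.00, standard error 0.19, adjusted p = 3.6e-04 in edgeR). Tnfrsf11a encodes RANK, the receptor that drives osteoclast formation, and was higher by 0.70 (standard error 0.21) on the log2 scale. Rae1, a factor of mRNA export, changed by 0.68 (standard error 0.17), Phlpp1, a phosphatase of the kinase AKT, by 0.76 (standard error 0.18), and Mif, macrophage migration inhibitory factor, by 0.42 (standard error 0.11). Of these 8 genes only Tcf4 and Phlpp1 showed no overlap between the 6 and 6 samples, and Phlpp1, Tnfrsf11a, Cd109, Ikbkap and Pml were not called with the samples of conflicting labels left out.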
